A study of Mus musculus with 18 samples.

Results

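The growth hormone and IGF axis was described in mouse liver RNA-seq from 18 libraries in 6 groups of 3. The 10 genes were taken by symbol from the deposited expression table of 19057 genes: Ghr, Stat5b, Socs2, Cish, Igf1, Igfals, Igfbp1, Igfbp2, Igfbp3 and Igfbp4. All 10 were found and all 10 were among the 10204 genes tested, those whose RPKM (read number scaled to gene length and library size) averaged 1 or more over the libraries. All libraries came from livers of male ICR mice, an outbred strain, at 10 weeks of age. Con mice received the regular diet. HS mice ate a high-fat diet from the age of 3 weeks and were injected once with STZ (streptozotocin, a toxin of the insulin-producing cells of the pancreas) at 85 mg/kg at 5 weeks. The 2 recipient groups, A10-FMT and Con-FMT, had this diet and STZ too and were then dosed by mouth from 5 to 7 weeks of age with microbiota from the small intestine. The donors of A10-FMT mice had been given alginate oligosaccharide (AOS) at 10 mg/kg, those of Con-FMT mice had not, and donor material was pooled. The A10 group (AOS at 10 mg/kg, no diet or STZ) and the HS+A10 group (diet, STZ and AOS at 10 mg/kg) are known here from the sample labels alone. Diet and STZ were never given apart, so their shares cannot be told apart.

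Growth hormone from the pituitary binds its receptor, Ghr, on hepatocytes and activates the kinase Jak2, which phosphorylates Stat5b, and Stat5b then turns on Igf1, Igfals, Socs2, Cish and many genes that differ between male and female liver. Igf1 circulates in a ternary complex with Igfbp3 and the acid-labile subunit, encoded by Igfals, while Igfbp1, Igfbp2 and Igfbp4 bind IGFs in smaller complexes. The liver is the main source of circulating Igf1. Insulin holds Igfbp1 transcription down through FOXO1, and liver Igfbp1 and Igfbp2 are known to be high when insulin is low, as in fasting or after loss of the cells that STZ destroys.

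Igfbp1, Socs2 and Igfbp2 had the widest range of group means, followed by Cish, whose libraries spread widely within groups. Igfbp2 was 2.96 times as high in HS as in Con by group means and lay near the Con level in Con-FMT. Igfbp1 had its highest level by far in Con-FMT and low levels in HS+A10 and A10-FMT, a range of 17.8 times between the highest and lowest group mean. Socs2 was raised in Con-FMT, a range of 3.02 times. Ghr had its lowest mean in HS and was called higher than HS in both recipient groups, while its rise in HS+A10 was not called. Stat5b was lower, and Igfbp2, Igfbp3 and Igfbp4 were higher, over the 4 groups with diet and STZ, recipients included, than over the 2 without. Igf1 and Igfals were the steadiest by group means: their highest group mean was 1.24 times the lowest, and neither passed the test in any comparison made. Over single libraries Igfbp4 varied least, with its highest value 1.44 times the lowest, against 1.55 for Igf1 and 1.67 for Igfals. The plot of RPKM by group shows these levels.

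**Figure D1:**
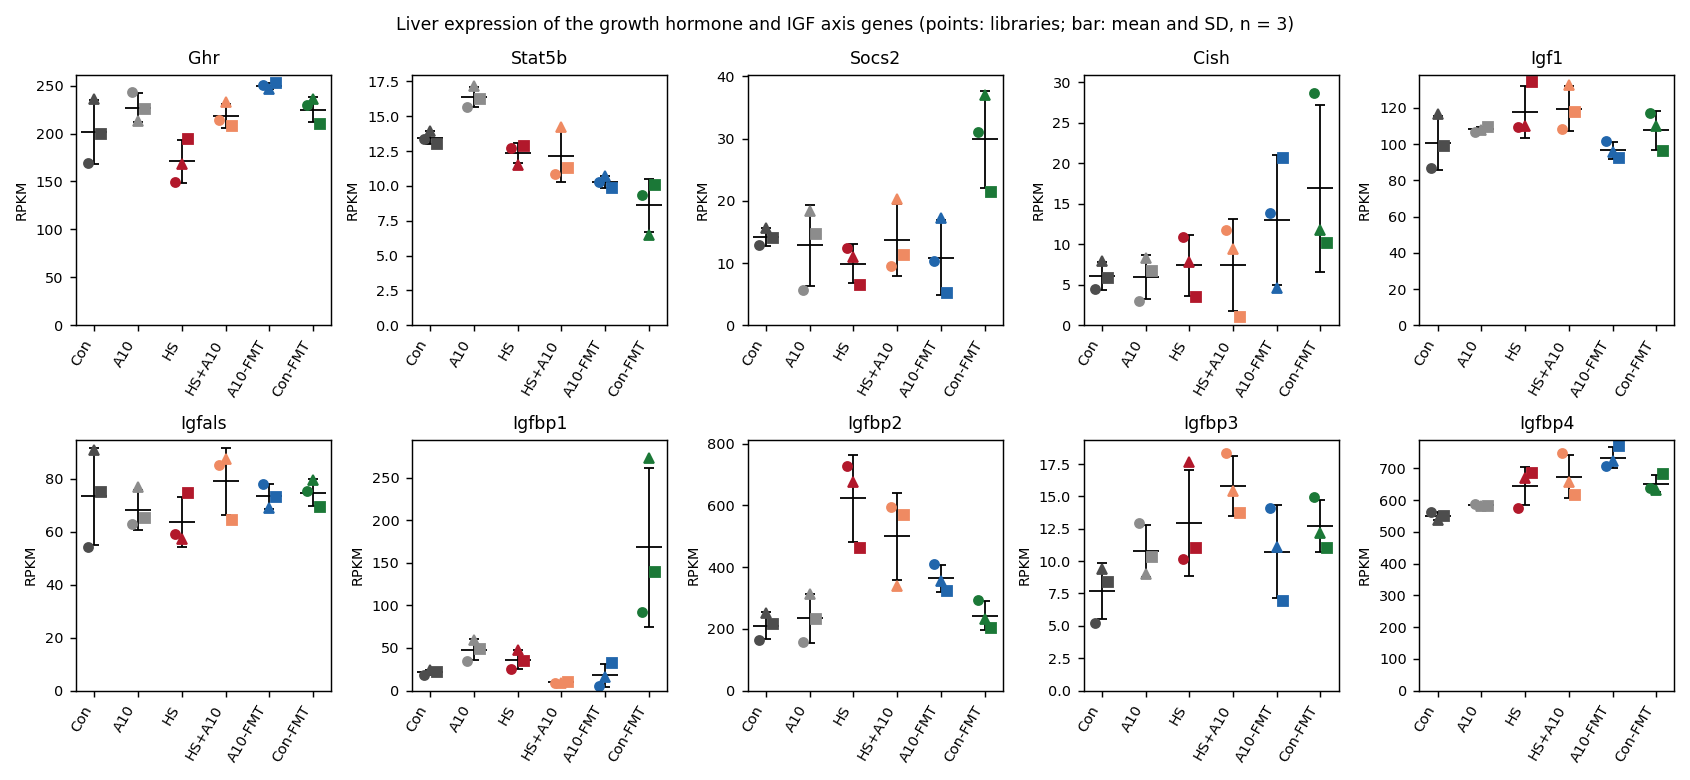
RPKM of the 10 genes (y axis, from 0) in the 6 groups (x axis), with 1 point per library (circle, triangle and square for replicates 1, 2 and 3) and a bar for the mean and SD (n = 3). Igfbp1 reached 92.3 to 273 RPKM in Con-FMT and at most 59.6 RPKM in the other groups, and Igfbp2 was at 463 to 728 RPKM in HS against 164 to 252 RPKM in Con.

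Summed RPKM ran from 692818 to 806937, which says nothing on read numbers because RPKM is scaled to library size. Relative depth, estimated on 68 genes from the smallest steps of their low values, ran from 0.957 to 1.04 with HS lowest. Only genes whose steps nearly matched across libraries were kept for it, so it could not show a large difference in depth. All 14 hepatocyte markers checked were present in every group. Con replicate 3 lay between the other 2 Con libraries for 97.6% of 666 genes that differed between those 2, and A10 replicate 3 did so for 95.9% of 394 genes, against 12.1% to 72.6% in the other 16 libraries. The same held for 9 and 8 of the 10 axis genes, so the spread within Con and A10 may be too small. Leaving both out ended 2 calls of the axis, Igfbp1 in HS+A10 against HS and Igfbp3 over the diet and STZ groups, and added none. Con-FMT replicate 3 carried pancreatic acinar transcripts (18 markers, 25708 RPKM in sum, against 14.2 to 50.7 RPKM in the other 17 libraries). Blood cell markers were highest in HS (2893 to 10044 RPKM over 10 markers, against 884 to 3625 RPKM elsewhere). Their part in the results below was not tested.

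Comparisons used limma on log2(RPKM + 1) with all 18 libraries in 1 fit, and a gene was called at a Benjamini-Hochberg adjusted p under 0.05 over all 10204 genes. Changes below are differences on this log2 scale with their standard error (SE). With 3 libraries against 3, an exact two-sided permutation test cannot go below p = 0.1, the value reached by every gene whose groups did not overlap. Nothing in the labels says how the libraries relate to single mice, so p-values measure the spread between these samples. HS enters 4 of the pairs of groups compared and Con 2, so these comparisons are not independent.

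In HS against Con, 1 of the 10 genes was called, Igfbp2, higher in HS, where 17.7% of all tested genes were called (15.9% higher, 1.87% lower). In A10-FMT against HS, 1 was called, Ghr, higher, beside 23.1% of all genes (2.09% higher, 21% lower). In Con-FMT against HS, 5 were called, with Igfbp1, Socs2 and Ghr higher and Igfbp2 and Stat5b lower, beside 23.6% of all genes (4.61% higher, 19% lower). In A10-FMT against Con-FMT, Igfbp1 and Socs2 were called, both lower in A10-FMT, beside 18.8% of all genes (12% lower). In HS+A10 against HS, Igfbp1 alone was called, lower, beside 7.32% of all genes (4.37% lower). In A10 against Con none of the 10 was called by limma, where 0.0686% of all genes were called. At an unadjusted p under 0.05 this comparison counted 13.9% of all genes, and Igfbp1 (adjusted p = 0.314) and Stat5b (adjusted p = 0.352) of the 10. In the mean of the 4 diet and STZ groups against the mean of Con and A10, 4 were called, with Igfbp2, Igfbp3 and Igfbp4 higher and Stat5b lower, beside 32.4% of all genes (20.3% higher, 12.1% lower). The 4 groups include both recipient groups, so this comparison mixes microbiota transfer with diet and STZ. Without Con replicate 3 and A10 replicate 3 the uncalled changes in HS against Con were -0.23 for Ghr, -0.14 for Stat5b, -0.52 for Socs2, 0.15 for Cish, 0.22 for Igf1, -0.15 for Igfals, 0.72 for Igfbp1, 0.76 for Igfbp3 and 0.22 for Igfbp4, all still uncalled, and those over diet and STZ were 0.91 for Igfbp2 (adjusted p = 0.00743), 0.25 for Igfbp4 (0.0201) and -0.45 for Stat5b (0.00503). Con-FMT against HS was the comparison in which the share of the 10 genes stood farthest above that of all genes. Giving every library the same median changed the split of all called genes from 1618 higher and 191 lower to 398 and 486 in HS against Con, from 213 and 2145 to 639 and 516 in A10-FMT against HS, from 470 and 1943 to 858 and 1240 in Con-FMT against HS, from 686 and 1228 to 1302 and 958 between the recipient groups, from 301 and 446 to 579 and 356 in HS+A10 against HS, and from 2075 and 1235 to 1612 and 1880 over diet and STZ.

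Counting genes whose 3 libraries all lay above or all lay below those of the other group gave 6 of 10 in HS against Con (36.8% of all genes), 5 in A10-FMT against HS (37.4%), 5 in Con-FMT against HS (35%), 5 in A10-FMT against Con-FMT (31.5%), 2 in HS+A10 against HS (27.4%) and 3 in A10 against Con (24.8%). The median change over all genes was 0.14 in HS against Con, -0.16 in A10-FMT against HS and -0.12 in Con-FMT against HS, and it lay within 0.1 of 0 in the other 3 pairs. Where a change is close to these medians, giving every library the same median takes most of it away. The plot of changes marks these medians beside each gene.

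**Figure D2:**
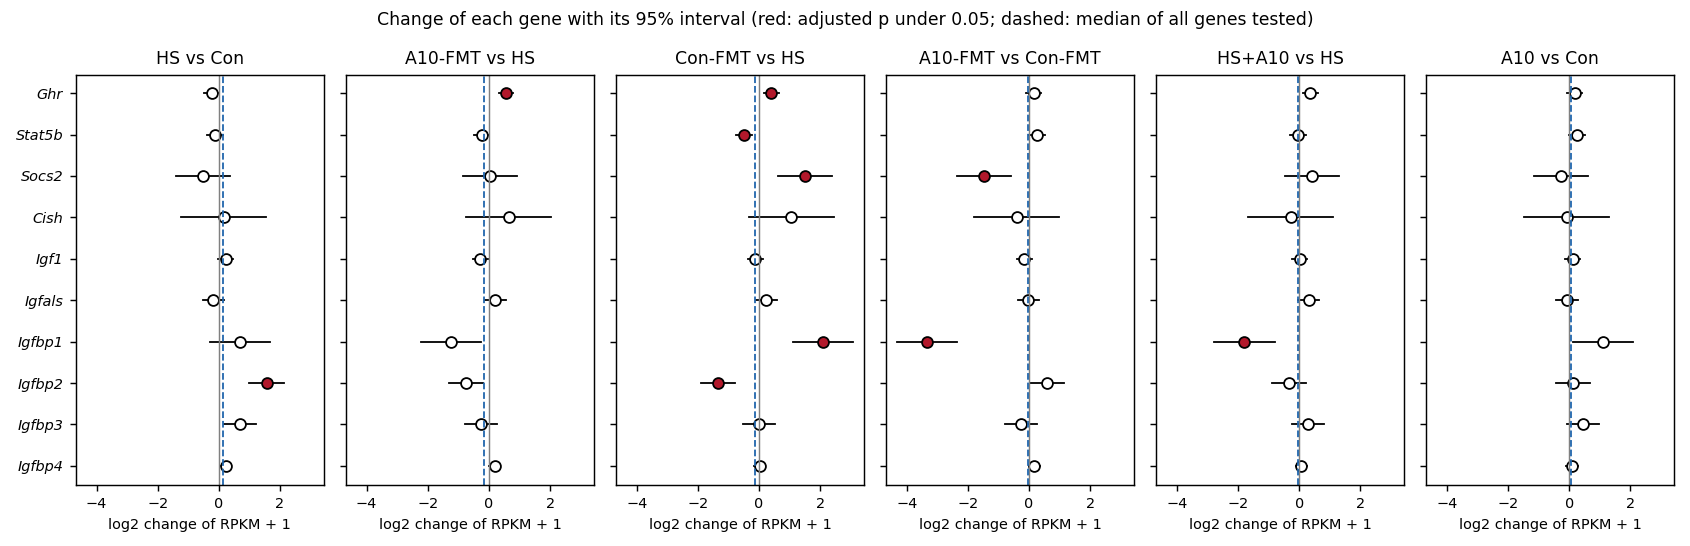
Log2 change of RPKM + 1 (x axis) of the 10 genes (y axis) in 6 pairs of groups, with the 95% interval from the fit as a line, a red point for an adjusted p under 0.05, a grey line at 0 and a dashed line at the median of all 10204 genes. Igfbp1 moved up by 2.09 in Con-FMT against HS and down by 3.33 in A10-FMT against Con-FMT, while Igf1 and Igfals lay between -0.28 and 0.31 in all 6 pairs.

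Ghr, the growth hormone receptor, lies at chr15:3317760-3583492 (minus strand; positions of genes are from GENCODE vM21 on GRCm38, the assembly also named mm10). It stood at 169.6, 236 and 199 RPKM in Con replicates 1 to 3, 243, 213 and 225 in A10, 149, 168 and 195 in HS, 214, 232 and 208 in HS+A10, 251, 246 and 253 in the A10-FMT group and 229.5, 236 and 210.0 in Con-FMT. HS was lowest (mean 171 ± 22.7 SD, n = 3) and A10-FMT highest (249.9 ± 3.23), and A10-FMT was the only group that did not overlap its neighbour in the order. Against HS, Ghr rose by 0.55 (SE 0.11, adjusted p = 0.00442) in A10-FMT. It rose by 0.40 (SE 0.11, adjusted p = 0.0186) in Con-FMT, but this call was lost without HS replicate 1 (0.31, adjusted p = 0.0825), without HS replicate 2 (0.05004), without Con-FMT replicate 1 (0.0523) or 2 (0.0636), and in a fit of the 2 groups alone (0.0836). In HS+A10 the change was 0.36 (SE 0.11, adjusted p = 0.0664), and between the 2 recipient groups it was 0.15 (SE 0.11). HS against Con gave -0.23 (SE 0.11, adjusted p = 0.159), which became -0.42 with an adjusted p of 0.0229 when all libraries were given the same median, a scaling under which HS+A10 against HS was called too (0.40, adjusted p = 0.0295). The hepatocyte marker sums overlapped between HS (53758 to 59654 RPKM) and A10-FMT (54358 to 66275 RPKM). These sums hide changes in both directions: of the 14 markers 1 was called higher and 4 lower in A10-FMT, beside 2.09% and 21% of all genes. In bulk liver, fewer cells of a type and less RNA per cell cannot be told apart.

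Stat5b (chr11:100780731-100850724, minus strand), the main transcription factor downstream of the receptor, stood at 13.4, 13.97 and 13.04 RPKM in Con, 15.7, 17.1 and 16.2 in A10, 12.7, 11.5 and 12.9 in HS, 10.8, 14.2 and 11.3 in HS+A10, 10.3, 10.7 and 9.85 in the A10-FMT group and 9.34, 6.46 and 10.04 in Con-FMT. A10 lay above every other library and the 2 recipient groups lay below all libraries of the other 4 groups. Over the 4 diet and STZ groups Stat5b was lower than over Con and A10 by 0.44 (SE 0.07, adjusted p = 4.49e-04), a call that held in all 27 refits (other settings or samples, with the threshold kept at 0.05). HS itself differed from Con by -0.11 (SE 0.12, adjusted p = 0.53). Against HS, Stat5b fell by 0.49 (SE 0.12, adjusted p = 0.00918) in Con-FMT, and by 0.60 without the Con-FMT library that carried pancreatic transcripts, while in a fit of these 2 groups alone the call was lost (adjusted p = 0.0956). The change in A10-FMT was -0.24 (SE 0.12, adjusted p = 0.15), of which all but -0.07 went when libraries were given the same median. Stat5a, its close relative and neighbour, fell by 0.87 in Con-FMT against HS (SE 0.17, adjusted p = 0.00227). The 2 genes share long stretches of sequence, so reads may have been split between them.

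Socs2 (chr10:95385362-95417180, minus strand) and Cish (chr9:107296026-107302784, plus strand) encode feedback inhibitors that growth hormone induces through Stat5b and that damp signalling at the receptor. Socs2 stood at 12.9, 15.6 and 14.01 RPKM in Con, 5.64, 18.3 and 14.6 in A10, 12.3, 10.9 and 6.39 in HS, 9.49, 20.3 and 11.3 in HS+A10, 10.3, 17.2 and 5.15 in the A10-FMT group and 31.1, 36.98 and 21.5 in Con-FMT. All 3 Con-FMT libraries lay above the other 15, and the other 5 groups overlapped their neighbours in the order. Socs2 rose by 1.51 in Con-FMT against HS (SE 0.41, adjusted p = 0.0158) and was lower by 1.48 in A10-FMT than in Con-FMT (SE 0.41, adjusted p = 0.0216). The first call was lost without HS replicate 3 (adjusted p = 0.0642) or Con-FMT replicate 2 (0.0602). The difference between recipient groups was lost without A10-FMT replicate 3 (1.07 lower, adjusted p = 0.0934) or Con-FMT replicate 1 (0.0573) or 2 (0.0725), and in a fit of the 2 groups alone (0.0617). Without the library with pancreatic transcripts both were larger, at 1.73 and -1.69.

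Cish spread more within groups than between them. It ranged from 4.45 to 7.97 RPKM in Con, 2.98 to 8.26 in A10, 3.50 to 10.9 in HS, 0.97 to 11.8 in HS+A10, 4.61 to 20.6 in the A10-FMT group and 10.2 to 28.7 in Con-FMT. Its mean was highest in Con-FMT (16.9 ± 10.3 SD), as for Socs2, but the change against HS was 1.06 with an SE of 0.65 (adjusted p = 0.255, 95% interval -0.33 to 2.45). Across the 18 libraries Socs2 and Cish had a Pearson r of 0.32 on log2(RPKM + 1), with the groups' own differences included.

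Igf1 (chr10:87858265-87937042, plus strand), the hormone at the end of the axis, stood at 86.9, 117 and 99.1 RPKM in Con, 107, 108 and 109 in A10, 109, 110.1 and 135 in HS, 108, 133 and 118 in HS+A10, 102, 95.8 and 92.2 in the A10-FMT group and 117, 110.0 and 96.03 in Con-FMT. The groups overlapped their neighbours throughout the order from A10-FMT, the lowest (mean 96.6 ± 4.84), to HS+A10, the highest (119.6 ± 12.4). The HS mean lay above the Con mean, by 0.23 (SE 0.11, adjusted p = 0.172, 95% interval -0.02 to 0.47), and 0.04 with libraries at the same median. A10-FMT lay below HS in 3 of 3 libraries, by 0.28 (SE 0.11, adjusted p = 0.0862), and by 0.09 with libraries at the same median. The change in Con-FMT against HS was -0.13 (SE 0.11).

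Igfals (chr17:24865997-24882010, plus strand) lay between 54.3 and 90.6 RPKM in all 18 libraries, and Con alone spanned that whole range. Its change was -0.18 in HS against Con (SE 0.16, adjusted p = 0.45), 0.21 in A10-FMT, 0.24 in Con-FMT and 0.31 in HS+A10 against HS (SE 0.16 for each, adjusted p from 0.261 to 0.353). The 95% interval of HS against Con ran from -0.53 to 0.17. Across the 18 libraries its highest correlation with another gene of the axis was with Ghr (Pearson r 0.62), a description over libraries that share their groups.

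Igfals is shown here with Igfbp1 because they were the axis genes whose promoters held a searched motif. RefSeq promoter windows of GRCm38.p6 (the 250 bases before a start site) were found for 9 of the 10 genes, 14 windows in all, with none for Socs2. They were searched with no mismatch for TTCNNNGAA, the palindrome that Stat5 binds, for the forkhead motif TGTTTAC, which reads GTAAACA on the other strand, and for TGTTTTG, which reads CAAAACA on the other strand, the core of the insulin-responsive element to which FOXO factors bind. The first is present in 7.02%, the second in 3.17% and the third in 5.56% of 32851 mouse promoter windows of this length. The Igfals window at chr17:24877981-24878230 (plus strand) held TGTTTAC at bases -242 to -236 and TTCCTAGAA at bases -58 to -50, counted from the start site, and another Igfals window held TTCTCAGAA at -236 to -228. The Igfbp1 window at chr11:7197537-7197786 (plus strand) held CAAAACA at bases -108 to -102. The windows follow 5′ to 3′, with these matches in capitals.
Igfals: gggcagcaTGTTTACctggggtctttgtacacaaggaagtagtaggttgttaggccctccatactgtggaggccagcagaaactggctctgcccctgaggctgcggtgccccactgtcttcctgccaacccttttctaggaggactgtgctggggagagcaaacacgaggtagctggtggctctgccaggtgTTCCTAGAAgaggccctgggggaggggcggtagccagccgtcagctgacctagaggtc
Igfbp1: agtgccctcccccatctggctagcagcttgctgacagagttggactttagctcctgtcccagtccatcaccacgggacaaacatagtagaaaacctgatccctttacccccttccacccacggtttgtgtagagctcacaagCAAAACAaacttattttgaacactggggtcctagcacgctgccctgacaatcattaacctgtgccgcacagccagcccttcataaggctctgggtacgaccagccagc
The other windows held none of the 3 motifs, no matches overlapped, and a match is a string of letters, not a measured binding site.

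Igfbp1 (chr11:7197782-7202546, plus strand), the binding protein whose transcription insulin holds down, stood at 18.1, 24.01 and 21.8 RPKM in Con, 35.2, 59.6 and 49.3 in A10, 25.6, 48.02 and 34.9 in HS, 8.49, 9.41 and 10.5 in HS+A10, 5.38, 16.01 and 31.8 in the A10-FMT group and 92.3, 273 and 139 in Con-FMT. The order of group means was HS+A10 (9.46 ± 0.996), A10-FMT (17.7 ± 13.3), Con (21.3 ± 2.98), HS (36.2 ± 11.3), A10 (48.0 ± 12.2) and Con-FMT (168 ± 93.8). Neighbours overlapped except Con with HS and A10 with Con-FMT. A10-FMT and Con-FMT spread widely, from 5.38 to 31.8 RPKM in the first and from 92.3 to 273 RPKM in the second, yet they did not overlap.

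Igfbp1 rose by 2.09 in Con-FMT against HS (SE 0.46, adjusted p = 0.0051) and was 3.33 lower in A10-FMT than in Con-FMT (SE 0.46, adjusted p = 2.83e-04). Both calls held in all 17 refits made for each, and the values without the library with pancreatic transcripts were 2.15 and -3.39. A10-FMT differed from HS by -1.24 (SE 0.46, adjusted p = 0.0631), and by -1.79 (adjusted p = 0.0163) without A10-FMT replicate 3, its highest library. With AOS given directly, Igfbp1 fell by 1.79 in HS+A10 against HS (SE 0.46, adjusted p = 0.0318), with the 3 HS+A10 libraries at 8.49 to 10.5 RPKM and the 3 HS libraries at 25.6 to 48.0 RPKM. This call sat near the threshold: leaving out any single library of the 2 groups except HS replicate 1 raised the adjusted p to between 0.0555 and 0.124, and leaving out Con replicate 3 and A10 replicate 3 raised it to 0.0657, with a change of at least 1.57 in size throughout.

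Without diet and STZ, Igfbp1 lay higher with AOS in 3 of 3 libraries, by 1.11 (SE 0.46, adjusted p = 0.314), or by 1.10 (adjusted p = 0.713) without Con replicate 3 and A10 replicate 3, and so was not called. The difference between the AOS effect with and without diet and STZ was -2.90 (SE 0.65), which had an unadjusted p of 4.5e-04 and an adjusted p of 0.118 and so did not pass. In the fit of all 18 libraries 1 gene of 10204 was called for this difference (0.0098%). It was called for Igfbp1 without HS replicate 1 (adjusted p = 0.0444) and in a fit of these 4 groups alone (0.0118), and it had an adjusted p of 0.434 without Con replicate 3 and A10 replicate 3. HS against Con gave 0.70 (SE 0.46, adjusted p = 0.294).

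Igfbp2 (chr1:72824503-72852474, plus strand), the other binding protein known to rise when insulin is low, was an abundant transcript. It stood at 164, 252 and 215 RPKM in Con, 156, 314 and 231 in A10, 728, 677 and 463 in HS, 594, 338 and 568 in HS+A10, 411, 356 and 324 in the A10-FMT group and 293, 232 and 204 in Con-FMT. Con, A10 and Con-FMT overlapped at the low end, A10-FMT lay above Con, A10 and Con-FMT in every library, and HS+A10 and HS overlapped at the top. Igfbp2 rose by 1.56 in HS against Con (SE 0.27, adjusted p = 0.00189), and by 1.58 (adjusted p = 0.0146) without Con replicate 3 and A10 replicate 3. It fell by 1.34 in Con-FMT against HS (SE 0.27, adjusted p = 0.00258), or by 1.23 (adjusted p = 0.01) without the library with pancreatic transcripts. Both calls held in all 17 refits made for each.

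In A10-FMT the change of Igfbp2 against HS was -0.76 (SE 0.27, adjusted p = 0.0515), with all 3 libraries below the 3 of HS. This lay at the threshold and passed it without HS replicate 3 (adjusted p = 0.037), in a fit of the 12 libraries of the recipient experiment (0.0328), in a fit of the 2 groups alone (0.046) and with a higher filter (0.0496). A10-FMT and Con-FMT differed by 0.59 (SE 0.27, adjusted p = 0.138). With AOS given directly the change against HS was -0.33 (SE 0.27, adjusted p = 0.475). Over the 4 diet and STZ groups Igfbp2 was higher than over Con and A10 by 0.89 (SE 0.16, adjusted p = 7.7e-04). Among the 4 diet and STZ groups, Con-FMT had the highest mean of Igfbp1 and the lowest mean of Igfbp2, and their Pearson r over the 18 libraries was -0.36.

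Igfbp4 (chr11:99041244-99054392, plus strand), which binds IGFs outside the ternary complex, had the highest RPKM of the axis in every library except HS replicates 1 and 2, where Igfbp2 was higher. It stood at 562, 537 and 549.6 RPKM in Con, 586, 582 and 582 in A10, 575, 670.5 and 685 in HS, 749, 656 and 617 in HS+A10, 706, 723 and 771 in the A10-FMT group and 639, 633 and 682 in Con-FMT. All but 1 library with diet and STZ lay above the highest library without. The mean over the 4 groups was higher by 0.25 (SE 0.05, adjusted p = 0.00224), and this held in all 27 refits, down to 0.19 with libraries at the same median. The change in HS against Con was 0.22 (SE 0.09, adjusted p = 0.0809), and 0.30 with an adjusted p of 0.0326 without HS replicate 1, but 0.04 with libraries at the same median. A10-FMT against HS gave 0.19 (SE 0.09, adjusted p = 0.114), which became 0.39 with an adjusted p of 0.0204 with libraries at the same median.

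Igfbp3 (chr11:7206086-7213923, minus strand) lies tail to tail with Igfbp1, with 3539 bases between them, and carries most Igf1 in blood. In liver it is known to come mainly from cells other than hepatocytes. It stood at 5.23, 9.38 and 8.40 RPKM in Con, 12.97, 9.01 and 10.3 in A10, 10.2, 17.6 and 11.01 in HS, 18.3, 15.4 and 13.7 in HS+A10, 14.1, 11.1 and 6.93 in the A10-FMT group and 14.9, 12.2 and 11.04 in Con-FMT. Con was lowest, HS+A10 highest, and each group overlapped its neighbour in the order. Igfbp3 was higher over the 4 diet and STZ groups by 0.46 (SE 0.15, adjusted p = 0.0296), but the call was lost without Con replicate 1 (0.35, adjusted p = 0.0983), A10 replicate 2 (0.084) or A10 replicate 3 (0.0638), without Con replicate 3 and A10 replicate 3 together (0.0803), and with no filter on low values (0.0536). HS against Con gave 0.68 (SE 0.25, adjusted p = 0.0667). Igfbp1 and Igfbp3, though neighbours, had a Pearson r of -0.10 over the 18 libraries.

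Markers of other liver cells were summed beside Igfbp3. The 13 stellate cell markers summed to 122 to 161 RPKM in Con, 152 to 184 in A10, 227 to 296 in HS, 231 to 242 in HS+A10, 169 to 206 in the A10-FMT group and 162 to 202 in Con-FMT. Of these 13, 9 were called higher over the 4 diet and STZ groups, beside 20.3% of all genes, and 5 were without Con replicate 3 and A10 replicate 3. None was at 0 in a whole group. The 12 endothelial markers summed to 112 to 145 RPKM in HS+A10 and to 63.3 to 103 RPKM in the other groups, with 3 of 12 called higher in HS+A10 than in HS, beside 2.95% of all genes. That count was 0 to 1 when any single library of the 2 groups except HS replicate 1 was left out, 0 without Con replicate 3 and A10 replicate 3, and 6 with libraries at the same median. The 12 Kupffer cell and macrophage markers summed to 92.8 to 121 RPKM in A10-FMT, below HS (163 to 231 RPKM), with 7 of 12 called lower, beside 21% of all genes. It was 3 without HS replicate 3 or A10-FMT replicate 3, and 1 with libraries at the same median. Igfbp3 was not called in HS+A10 or A10-FMT against HS. Over the 4 diet and STZ groups, 3 of the 12 endothelial markers were called higher and 0 lower. There, 0 of the 12 Kupffer cell and macrophage markers were called higher and 3 lower, beside 20.3% of all genes higher and 12.1% lower. The part of these cells in the level of Igfbp3 was not tested.

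**Figure D3:**
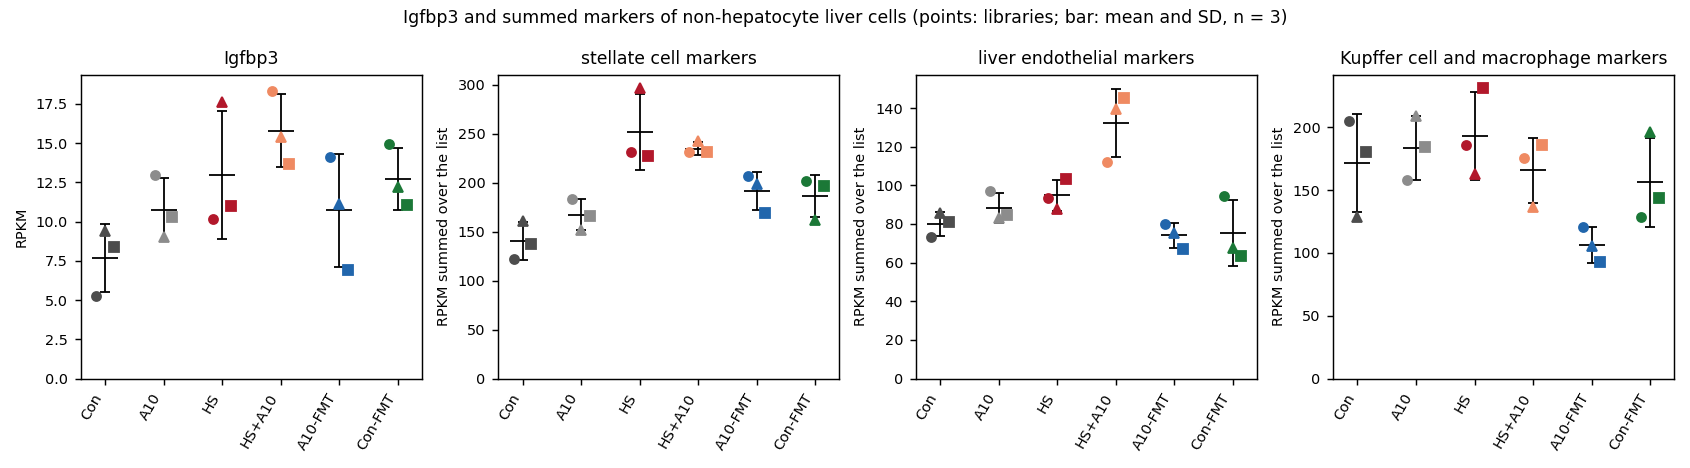
RPKM of Igfbp3 and RPKM summed over the markers of stellate cells (13 genes), liver endothelium (12) and Kupffer cells and macrophages (12), in each library of the 6 groups (points; bars give the mean and SD, n = 3; y axes from 0). Stellate markers and Igfbp3 were both lowest in Con, at 122 to 161 and 5.23 to 9.38 RPKM, though Con overlapped another group in each. Igfbp3 reached its highest value in HS+A10 (13.7 to 18.3 RPKM), as did the endothelial sum (112 to 145 RPKM). The stellate sum reached its highest value in HS (227 to 296 RPKM).

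Beyond the 10 genes, other parts of the pathway were counted over lists. For growth hormone receptor signalling (18 of 19 listed genes tested), 4 were called higher and 0 lower in HS against Con, with a median change of 0.14, the same as over all genes, of which 15.9% were called higher. Among them were Ptpn6 (0.38), a phosphatase that damps Jak signalling, Jak1 (0.28) and Sh2b1 (0.24), an adaptor of Jak2. This count rested on single libraries: it was 0 without Con replicate 1, 1 without Con replicate 2, Con replicate 3 or HS replicate 3, and 2 without HS replicate 2. It was 1 without Con replicate 3 and A10 replicate 3 together, and 0 with libraries at the same median. In A10-FMT against HS, 3 fell: Stat3 (-0.69, SE 0.13), Ptpn6 (-0.51) and Ptpn1 (-0.32), with a list median of -0.18 against -0.16 over all genes, of which 21% fell. In HS+A10 against HS, Stat3 alone was called by limma, and fell by 0.62 (SE 0.13, adjusted p = 0.0153), beside 4.37% of all genes lower. In this comparison 0 of the list were called without HS replicate 2, HS replicate 3 or HS+A10 replicate 1. Stat3 stood at 26.5 to 28.7 RPKM in HS, 16.9 to 18.3 in HS+A10 and 15.8 to 17.3 in A10-FMT, with no overlap of either with HS.

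Con-FMT against HS had the most calls of this list in these 4 comparisons, 5 higher and 3 lower, beside 4.61% and 19% of all genes, with a list median of -0.0037 against -0.12 over all genes. Socs3, a feedback inhibitor induced by cytokines through Stat3 as well as by growth hormone, rose by 2.35 (SE 0.35, adjusted p = 4.11e-04), with 11.5 to 31.9 RPKM in Con-FMT and 1.72 to 6.42 RPKM in the other 5 groups. Grb10 (0.69), Hnf4a (0.53), Ptpn1 (0.41) and Stat3 (0.39) also rose, and Stat5a (-0.87), Ptpn6 (-0.32) and Sh2b1 (-0.23) fell. In Con-FMT, then, Socs2 and Socs3 were both higher than in HS while Stat5a and Stat5b were both lower.

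Of the other IGF ligands, binding proteins, receptors and adaptors 9 of 19 were expressed enough to be tested. In HS against Con 4 were higher and 0 lower, beside 15.9% of all genes higher, with a median of 0.39: Igfbp7 (0.68, SE 0.11, adjusted p = 0.00138), a secreted protein related to the IGF-binding proteins, Htra1 (0.56), a protease that cleaves some of them, Irs1 (0.40), an adaptor of the insulin and IGF receptors, and Igf2r (0.39), the receptor that clears IGF2. The count was 2 without Con replicate 1 or HS replicate 2, 3 without Con replicate 3 and A10 replicate 3, and 2 with libraries at the same median. In A10-FMT against HS 4 fell: Irs2 (-0.93, SE 0.22), Igfbp7 (-0.41), Irs1 (-0.39) and Grb14 (-0.33), an inhibitor of the insulin receptor, beside 21% of all genes lower. Leaving out HS replicate 2 or A10-FMT replicate 3 left 1, and leaving out HS replicate 3, A10-FMT replicate 2, or Con replicate 3 and A10 replicate 3 left 2. With libraries at the same median 1 was called. In Con-FMT against HS Irs1 (-0.73), Grb14 (-0.57) and Igfbp7 (-0.50) fell and Irs2 rose by 0.76 (SE 0.22), beside 19% of all genes lower and 4.61% higher. Irs2, an insulin receptor substrate whose transcription FOXO1 drives, stood at 1.43 to 1.58 RPKM in A10-FMT and at 5.13 to 9.67 RPKM in Con-FMT. No gene of this list was called in HS+A10 against HS by limma, and 2 were with libraries at the same median.

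Genes whose liver level depends on the male pattern of growth hormone pulses were counted next, for which 24 of 27 listed genes were tested. In HS against Con 4 were lower and 0 higher, beside 1.87% of all genes lower, with a median of -0.12 against 0.14 over all genes (3 lower without Con replicate 3 and A10 replicate 3): Nat8 (-2.06, SE 0.38), Ugt2b38 (-1.38), Hsd3b5 (-1.26) and Cyp4a12a (-0.84). Hsd3b5, a steroid-metabolising enzyme of male liver, stood at 163 to 257 RPKM in Con and 67.9 to 125 RPKM in HS. It rose in A10-FMT (by 1.46, SE 0.35, to 226 to 263 RPKM) and in Con-FMT (by 1.08, SE 0.35, to 144 to 217 RPKM). Cyp4a12a did not return to its Con level (363 to 387 RPKM). It stood at 175 to 238 RPKM in HS, 197 to 223 RPKM in A10-FMT and 152 to 256 RPKM in Con-FMT. In A10-FMT against HS 5 rose and 4 fell, among them Mup21 (1.18), Egfr (-0.59) and Serpina3k (-0.41), beside 2.09% of all genes higher and 21% lower. These 9 calls became 3 without HS replicate 2, HS replicate 3, A10-FMT replicate 2 or A10-FMT replicate 3, and 5 without A10-FMT replicate 1 or without Con replicate 3 and A10 replicate 3. With libraries at the same median 5 were called higher and 0 lower. In Con-FMT against HS 5 rose and 0 fell, among them Mup21 (0.99), Ugt2b38 (0.86), C6 (0.70) and Mup3 (0.38), beside 4.61% of all genes higher. The list had 1 call without HS replicate 1, HS replicate 2 or Con-FMT replicate 1, and 2 without Con-FMT replicate 2. By limma none of it was called without Con replicate 3 and A10 replicate 3, although these libraries are in neither group. In HS+A10 against HS Mup20 fell by 2.03 (SE 0.37), from 2367 to 4565 RPKM down to 628 to 1230 RPKM, a level close to that of A10 (968 to 1313 RPKM), and Egfr fell by 0.56, beside 4.37% of all genes lower. This list had 4 calls without HS+A10 replicate 3, and 1 without HS replicate 2, HS replicate 3, HS+A10 replicate 1 or HS+A10 replicate 2, or without Con replicate 3 and A10 replicate 3.

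Of the genes known to be higher in female liver, 15 of 30 were expressed enough to be tested in these males. In HS against Con 3 of the 15 were higher and 0 lower, a share near the 15.9% of all genes higher, and 2 were without Con replicate 3 and A10 replicate 3. The list median was 0.77 against 0.14, and the called genes were Cyp3a44 (2.26, SE 0.37, from 0.30 to 0.59 up to 5.43 to 7.03 RPKM), the fatty acid transporter Cd36 (1.66, SE 0.32) and Acot4 (0.77, SE 0.24). Against HS, Cyp3a44 fell by 1.41 (SE 0.37) in A10-FMT, and the fall in Con-FMT was by 1.36 (SE 0.37), and Fmo2 rose by 0.96 (SE 0.19) in Con-FMT. In A10-FMT 0 of the list were called without HS replicate 3, A10-FMT replicate 2 or A10-FMT replicate 3, 2 without HS replicate 2 or A10-FMT replicate 1, and 3 without HS replicate 1. In Con-FMT 1 was called without HS replicate 3 or Con-FMT replicate 2. In HS+A10 against HS 4 were higher and 0 lower, beside 2.95% of all genes higher, with a median of 0.57 against -0.03: Cyp2b13 (2.57, SE 0.55), Acot3 (2.56, SE 0.34), Cd36 (1.57, SE 0.32) and Acot4 (0.86, SE 0.24). This count fell to 1 without HS replicate 3 and to 2 without HS replicate 2 or HS+A10 replicate 1. Cyp2b13 passed the filter through HS+A10 alone, with a mean of 14.52 RPKM there and of 0.293 to 0.973 RPKM in the other groups. Admitting a gene by its level in HS+A10 biases the count and the list median upward for that group. Cd36 stood at 7.22 to 11.8 RPKM in HS and 19.8 to 34.6 RPKM in HS+A10. Over the 4 diet and STZ groups against Con and A10, 9 of the 15 were called higher and 1 lower. The male-biased list had 5 higher and 4 lower of 24 there, beside 20.3% of all genes higher and 12.1% lower. The limit from the filter on Cyp2b13 applies to the count of the female-biased list over the 4 groups too. Cd36, Acot3 and Acot4 are also known as targets of the fatty acid receptor Ppara. The Cyp, Mup, Acot, Ugt and Serpina genes belong to families of near-identical copies between which reads can be split, so their values are uncertain.

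The targets that insulin holds down through FOXO1, the route by which it also acts on Igfbp1, were counted last (13 of 15 tested). In HS against Con 3 were higher and 0 lower, beside 15.9% of all genes higher, with a median of 0.20: Pck1 (1.72, SE 0.13, adjusted p = 3.03e-06), the gatekeeper of gluconeogenesis, Klf15 (0.75) and Foxo1 itself (0.24). The count was 1 without Con replicate 1 or with libraries at the same median, and 2 without Con replicate 3 and A10 replicate 3. In Con-FMT against HS 6 rose and 1 fell, among them Trib1 (1.65, SE 0.32), Il6ra (0.97), Foxo3 (0.83) and Foxo1 (0.59, SE 0.07), with a median of 0.27 against -0.12 over all genes, of which 4.61% rose, and 4 were called without HS replicate 1. In A10-FMT against HS Irs2, Pdk4 (-0.72) and Pck1 (-0.41) fell and Foxo1 rose by 0.29. The share of 3 of 13 lower was near the 21% of all genes lower there, with 2.09% of all genes higher. These 4 calls became 2 without HS replicate 1, HS replicate 2, A10-FMT replicate 1 or A10-FMT replicate 3, and without Con replicate 3 and A10 replicate 3. Pck1 stood at 941 to 1084 RPKM in HS, 1159 to 1294 RPKM in Con-FMT, 632 to 876 RPKM in A10-FMT and 287 to 342 RPKM in Con. G6pc of the same list stood lower in Con-FMT (151 to 250 RPKM) than in HS (259 to 342 RPKM), with 156 to 265 RPKM in Con. None of the list was called in HS+A10 against HS by limma, where Igfbp1 fell. The plot of the 5 lists shows each gene's change.

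**Figure D4:**
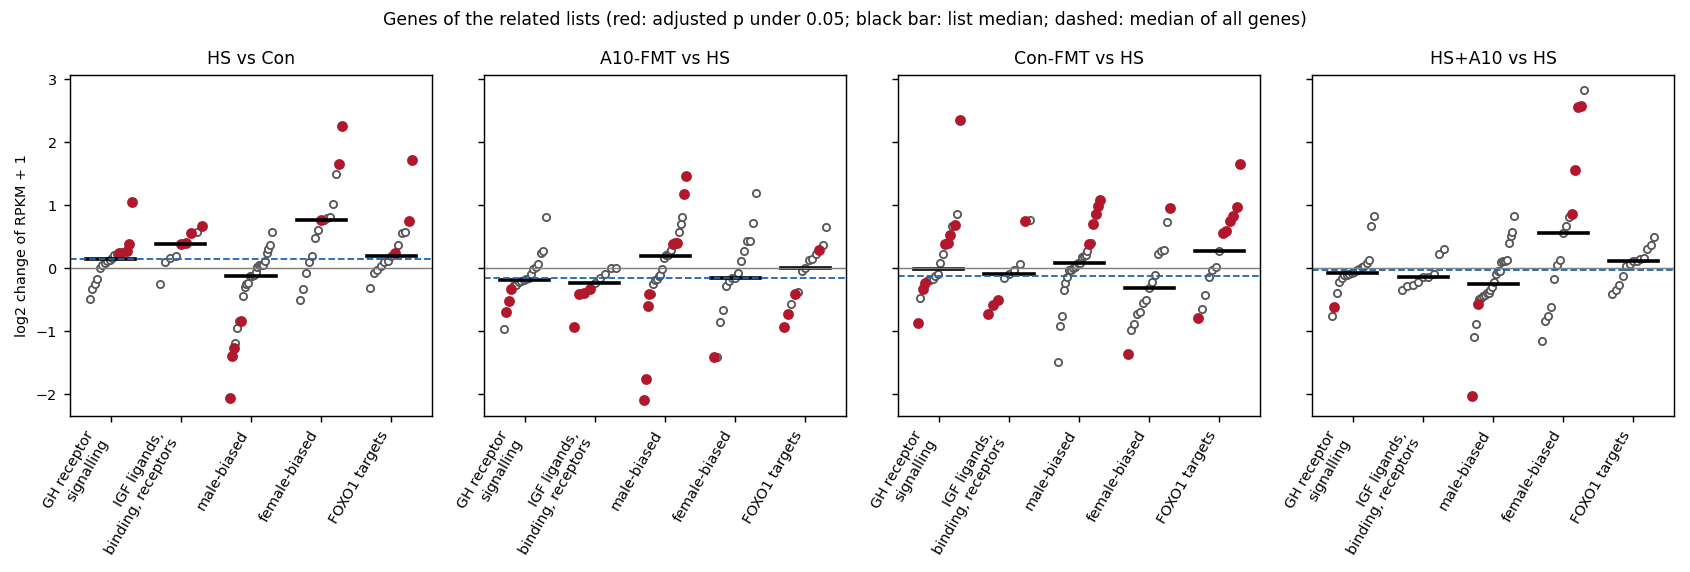
Log2 change of RPKM + 1 (y axis) of the tested genes of 5 lists (x axis) in 4 comparisons, with a red point for an adjusted p under 0.05, an open point otherwise, a black bar at each list's median and a dashed line at the median of all genes. In HS against Con the 3 red points of the female-biased list lie above 0 and the 4 of the male-biased list below it. Of all genes 15.9% were called higher and 1.87% lower there. Socs3 (2.35) is the highest point of the receptor signalling list in Con-FMT against HS.

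The genes most like Igf1, Igfbp1 and Socs2 across the 18 libraries were taken from 10194 others by Pearson r on log2(RPKM + 1). For Igfbp1 they were Irf2bp2 (0.91), Crem (0.91) and Tra2a (0.89), of which Crem encodes a transcription factor of the cyclic AMP response. For Igf1 they were Setd5 (0.85), Uba1 (0.84) and Fam168b (0.84), and for Socs2 Taf1a (0.90), Prpf6 (0.77) and D11Wsu47e (0.75). Setd5, unlike Igf1, was called in HS against Con (0.38, SE 0.07, adjusted p = 0.00442) and in A10-FMT against HS (-0.32, SE 0.07, adjusted p = 0.00761). Irf2bp2 rose by 0.86 in Con-FMT against HS (SE 0.19, adjusted p = 0.00451), the comparison in which Igfbp1 rose, and Taf1a rose there by 0.46 (SE 0.12, adjusted p = 0.0147), as did Socs2. These libraries share groups and scale, so the correlations are descriptions.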

How the data were processed

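Liver mRNA was enriched with oligo(dT), sequenced on a HiSeq instrument and aligned with SOAPaligner. The authors deposited RPKM values per gene and library with 2 decimals, and the submitters' processing notes also name Bowtie 0.12.2 and mm10, with no role given. Read numbers per library were not given in the sources used here, so no counting intervals were computed. Each column was matched to its sample by the labels, and 0 columns were left unmatched.

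RPKM values were used without further scaling, transformed as log2(RPKM + 1) and tested, where the mean over the 18 libraries was 1 RPKM or more, with limma 3.58.1 in R 4.3.3 (1 mean per group, moderated variance with a trend, two-sided tests, Benjamini-Hochberg adjustment, threshold 0.05). DEGseq, the test of the paper, ignores how replicates vary and was not used. Exact permutation tests, levels and figures were made in Python 3.11.15. The scripts were tested on simulated data. Of the other lists, every called gene of the receptor signalling and IGF lists was named, except for an item that is not reported here, and up to 4 genes with the smallest adjusted p in each comparison from the sex-biased and FOXO1 lists; Pck1 in Con-FMT, levels of single genes in further groups and Setd5, Irf2bp2 and Taf1a changes were chosen after their values were seen. Lists were written from general knowledge. The 10 genes and the lists were chosen with earlier results of these data known.

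The settings varied were the pseudocount (0.1), the filter (none, or a mean of 5 RPKM and more) and the scaling of libraries (quantile normalization, the same median in each library, the same sum without the 10 most abundant genes), beside a replicate block, no variance trend, 12 libraries or the compared groups alone in the fit, the threshold of the paper, and leaving out each replicate. Leaving out Con replicate 3 and A10 replicate 3 together was chosen after seeing the data.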

Additional observations from a re-analysis of the deposited data

Results flagged for a closer look

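Igfbp1 and Socs2 differed between the 2 groups of microbiota recipients, which shared diet, STZ and dosing and differed in the donors. Donor material was pooled within each donor group, so the libraries do not replicate the donor microbiota. The adjusted p values below measure the spread between recipient samples only. Igfbp1 was lower in A10-FMT than in Con-FMT by a log2 change of -3.33 (limma, SE 0.46, adjusted p = 2.83e-04), with no overlap between 5.38 to 31.8 and 92.3 to 273 RPKM. Socs2 was lower in A10-FMT by a log2 change of -1.48 (SE 0.41, adjusted p = 0.0216), with 5.15 to 17.2 against 21.5 to 37.0 RPKM. Con-FMT replicate 3 carried pancreatic acinar transcripts, and without it the values were -3.39 and -1.69. The Igfbp1 call held without each single library, but the Socs2 call was lost without A10-FMT replicate 3 (-1.07, adjusted p = 0.0934), Con-FMT replicate 1 (0.0573) or Con-FMT replicate 2 (0.0725), and in a fit of the 2 groups alone (0.0617).

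Igfbp1 lay lower with AOS where diet and STZ were given and higher with AOS where they were not, but a difference between the 2 effects did not pass. Every HS+A10 library lay below every HS library (-1.79, adjusted p = 0.0318), a call lost when any single library of the 2 groups except HS replicate 1 was left out (adjusted p up to 0.124). Every A10 library lay above every Con library, but this was not called (1.11, adjusted p = 0.314). The difference between the 2 effects was -2.90 on the log2 scale (limma interaction, SE 0.65, unadjusted p = 4.5e-04), with an adjusted p of 0.118. Adjusted p ran from 0.0118 to 0.434 over 22 alternatives.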

How the results depend on the processing

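Read numbers are unknown, each group has 3 libraries, and 3 against 3 cannot give an exact p below 0.1. The counts of calls over the 10 genes used below are 1 in HS against Con, 1 in A10-FMT against HS, 5 in Con-FMT against HS, 2 in A10-FMT against Con-FMT, 1 in HS+A10 against HS, 0 in A10 against Con, 4 over diet and STZ and 0 for the difference of AOS effects. The corresponding counts over all genes are 1809, 2358, 2413, 1914, 747, 7, 3310 and 1. The cause of a change was not tested.

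At the threshold of the paper (adjusted p of at most 0.001 and a log2 change of at least 1) the genes of the axis called were 0 in HS against Con, A10-FMT against HS, Con-FMT against HS, HS+A10 against HS and over diet and STZ, and 1 in A10-FMT against Con-FMT. Over all genes this threshold gave 39, 33, 96, 80, 2, 0, 163 and 0 calls in the order above. With the compared groups alone in the fit, which leaves fewer libraries, the axis gave 2 in A10-FMT against HS, 3 in Con-FMT against HS, 1 in A10-FMT against Con-FMT and 1 for the difference of AOS effects. All genes gave 702, 846, 777, 687, 76 and 40 in the 6 pairs and 8 for the difference. In the 12 libraries of the recipient experiment A10-FMT against HS gave 2 of the axis, and HS against Con 996 genes. With quantile normalization the axis gave 2 in HS against Con, A10-FMT against HS and HS+A10 against HS and 4 in A10-FMT against Con-FMT, and all genes 876 in HS against Con and 1114 in A10-FMT against HS. With the same median in each library the axis gave 2 in HS against Con, A10-FMT against HS and HS+A10 against HS, and all genes 884 and 1155. With the same sum without the 10 most abundant genes HS+A10 against HS gave 2 of the axis, A10-FMT against HS 1502 genes and the difference 5. A mean of at least 5 RPKM gave 2 of the axis in A10-FMT against HS, and 1307 genes in Con-FMT against HS, 1229 in A10-FMT against Con-FMT and 2 for the difference. No filter gave 0 of the axis in HS+A10 against HS, 18 genes in A10 against Con and 2 for the difference, and a pseudocount of 0.1 gave 4 for the difference.

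Leaving out each library in turn gave, in the order of the first paragraph, 1 to 2, 1 to 2, 3 to 5, 1 to 2, 0 to 1, 0 to 0, 3 to 4 and 0 to 1 genes of the axis, and 847 to 1599, 1297 to 2586, 1758 to 2256, 1178 to 1636, 152 to 1233, 0 to 72, 2626 to 3458 and 0 to 118 genes in all. Without Con replicate 3 and A10 replicate 3 the axis had the same counts except 0 in HS+A10 against HS and 3 over diet and STZ, and all genes gave 700 in HS against Con, 350 in HS+A10 against HS, 0 in A10 against Con, 2078 over diet and STZ and 0 for the difference. Cish in HS against Con (0.16, not called) turned to -0.0125 without Con replicate 1 and -0.146 without HS replicate 1, its values over single libraries left out running up to 0.557. Replicate numbers were not shown to pair the samples: deviations of same-numbered libraries correlated at -0.0932 to 0.262, and not every pair passed 0.1 in any comparison. The replicate block gave 2 of the axis in A10-FMT against HS, where Igfbp1 (-1.24) was then called at an adjusted p of 0.0226, and changed no other call of the axis.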
